A study of Mus musculus with 8 samples.

Results

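The insulin-like growth factor (IGF) genes followed here are 9 of 27962 gene names on the array, chosen by name: the ligands Igf1 and Igf2, the receptors Igf1r and Igf2r, and the binding proteins Igfbp2, Igfbp3, Igfbp4, Igfbp5 and Igfbp7. They were read by 16 of 41174 probes on the array. After probes not well above background were left out, 9 probes for 7 of the 9 genes remained among 22975 probes. In limma, 0 of these 7 genes passed the test between DEHP and vehicle mice at an adjusted p under 0.05, as did 0% of all kept probes, and 0 had an unadjusted p under 0.05. The largest mean log2 ratios of DEHP over vehicle were 0.25 for Igf1 and -0.26 for Igf2. Both genes were farthest from 0 in the same pair of mice, without which the means were 0.12 and -0.10.

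The mice were adult male C57BL/6J animals. The 4 DEHP mice received di-(2-ethylhexyl) phthalate (DEHP), a plasticiser, by gavage in corn oil from 18 weeks of age. The daily dose was 200 mg/kg and treatment lasted 21 days. The 4 vehicle mice received corn oil alone in the same way, and both groups were labelled as 21 weeks old. RNA came from the right testis by laser capture, 1 cap per mouse, and went through 2 rounds of amplification. The samples are labelled as Sertoli-cell-rich areas of the middle layer of the tubule epithelium, whereas the capture step in the same labels names Leydig cells. Each array compared 1 DEHP mouse with 1 vehicle mouse in 2 colours. DEHP mouse 1 was set against vehicle mouse 2 (pair 1), DEHP mouse 2 against vehicle mouse 3 (pair 2), DEHP mouse 3 against vehicle mouse 4 (pair 3) and DEHP mouse 4 against vehicle mouse 1 (pair 4). Every pair was hybridised in both dye orientations, which gave 8 arrays. Slide 1 held every array on which DEHP was labelled with Cy5, and slide 2 every array on which it was labelled with Cy3, so dye orientation and slide cannot be told apart.

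IGF1 and IGF2 are secreted peptides related to insulin. Both bind the receptor tyrosine kinase IGF1R, which signals through insulin receptor substrates to PI3 kinase, AKT and MAP kinases, whereas IGF2R takes up IGF2 and carries it to lysosomes. Binding proteins hold the ligands outside the cell, and proteases that cut them set the ligands free. In the testis, IGF1 comes from Sertoli, Leydig and peritubular cells, and in mice signalling through IGF1R and the insulin receptor is needed for normal Sertoli cell number.

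Before the IGF genes, the arrays themselves set limits. Between 49.8% and 59.5% of the spots in a channel exceeded background clearly, 0 were saturated, and the number of arrays limits the precision. Pair 2 stood apart: its log2 ratios over the 22975 probes had an SD of 0.130, against 0.230 to 0.270 in the other pairs. Its dye-swapped arrays also correlated least across probes (r = 0.539, against 0.675 to 0.717). Among cell type markers, 14 of 15 Sertoli genes and 9 of 9 spermatid genes were measured, so RNA of germ cells was present beside that of Sertoli cells. The mean log2 intensity of the spermatid markers was 13.56 to 13.86 in DEHP mice and 13.56 to 13.77 in vehicle mice. That of the Sertoli markers was 10.03 to 10.27 and 9.95 to 10.20. Levels of different probes give no share of cells. Of 9 Leydig genes, 5 were measured, including Insl3, the Leydig cell peptide hormone, whose log2 ratios in pairs 1 to 4 were -0.98, 2.23, -1.49 and -0.25. The brightest Sertoli genes, Ctsl (a lysosomal protease) and Defb19 (a defensin), had mean log2 ratios of 0.12 and 0.26. In such bulk samples, fewer cells of a type and less RNA per cell cannot be told apart.

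Igf1, the ligand best known as the mediator of growth hormone, was measured in all 8 DEHP and all 8 vehicle channels. Of its 3 probes, 2 were kept. The reported mean for Igf1 rests on the brighter of them, and the other is given beside it. Sequences of both are shown. They read stretches of the gene 17098 bases apart on mouse chromosome 10 (design positions in build mm7, plus strand). The less bright probe, at chr10:87471884-87471943, is printed whole, with capitals marking the 14 bases that it shares with a probe of another gene. The bright probe, at chr10:87488982-87489041, is given by its opening 30 bases. No exon annotation of mm7 was used here.
Igf1 probe A_52_P536434: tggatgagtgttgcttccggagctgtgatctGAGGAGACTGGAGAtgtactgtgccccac
Igf1 probe A_51_P147942: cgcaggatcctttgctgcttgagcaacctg

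On the bright probe, the log2 intensity of Igf1 was 9.84, 9.95, 10.11 and 9.90 in DEHP mice 1 to 4, against 9.95, 9.50, 9.88 and 9.47 in vehicle mice 1 to 4. DEHP mouse 3 was the highest and vehicle mice 2 and 4 were the lowest, while vehicle mice 1 and 3 lay within the range of the DEHP mice, so the groups overlapped. Over all kept probes, the levels of the DEHP and vehicle mice did not overlap for 1.81%. The mean level was 9.95 ± 0.11 in DEHP mice and 9.70 ± 0.25 in vehicle mice (SD, n = 4 each).

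By pair, the log2 ratio of DEHP over vehicle for Igf1 was 0.34, 0.067, 0.63 and -0.055 in pairs 1 to 4. It was above 0 in 3 of 4 pairs, and pair 3 had the highest value. The mean was 0.25, a 1.19-fold difference, with a 95% interval of -0.076 to 0.57 (limma, unadjusted p = 0.106, adjusted p = 0.903). Without pair 3 the mean was 0.12, and without pair 2 it was 0.31. The less bright probe gave 0.073, 0.013, 0.32 and 0.052 in the same pairs, above 0 in all 4, where 13.6% of all kept probes had the same sign in all 4 pairs. Its mean was 0.11 (95% interval -0.056 to 0.28, limma adjusted p = 0.903). The third probe, 51036 bases from the less bright one, was well above background in 1 of 8 DEHP and 3 of 8 vehicle channels and did not pass the filter. In the limma fit without the filter on dim probes it had a mean log2 ratio of -0.10, opposite in sign to the 2 kept probes (unadjusted p = 0.099, adjusted p = 0.918).

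**Figure D1:**
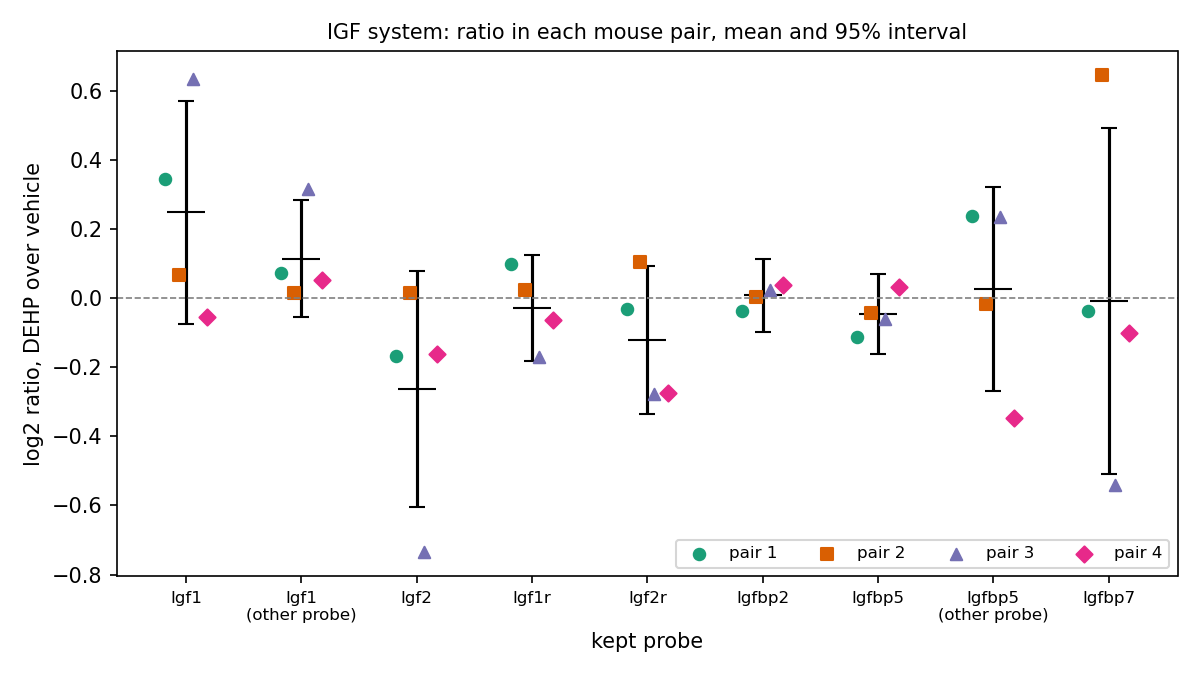
Log2 ratio of DEHP over vehicle (vertical axis) for each of the 9 kept IGF probes (horizontal axis). Points are the 4 mouse pairs, the horizontal bar is their mean and the whiskers are limma's 95% interval; every interval spans 0, and pair 3 lies farthest from 0 for Igf1 and Igf2.

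Igf2, the ligand that is most active before birth and is expressed from the paternal allele, was measured in all channels by 1 of its 2 probes. It is listed at chr7:139078075-139078135 on the minus strand, and its opening 30 bases are shown because the lowest IGF ratio rests on it.
Igf2 probe A_51_P516826: aacatgcattttctggcaaaatcaaagctt

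Its log2 intensity was 8.10, 8.23, 8.01 and 8.36 in DEHP mice 1 to 4, against 8.52, 8.27, 8.21 and 8.75 in vehicle mice 1 to 4. Vehicle mice 1 and 4 were above every DEHP mouse, while vehicle mice 2 and 3 lay within the range of the DEHP mice. The mean level was 8.18 ± 0.15 in DEHP mice and 8.44 ± 0.25 in vehicle mice (SD, n = 4 each).

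The log2 ratios for Igf2 were -0.17, 0.015, -0.74 and -0.16 in pairs 1 to 4. Pair 3 was the lowest, and 3 of 4 pairs were below 0. The mean was -0.26, a ratio of 0.834, with a 95% interval of -0.60 to 0.079 (limma, unadjusted p = 0.105, adjusted p = 0.903). Without pair 3 the mean was -0.10, and without pair 2 it was -0.35. Pair 3 thus held both the highest Igf1 and the lowest Igf2 ratio. In that pair Insl3 and Hsd3b1, a steroid-forming enzyme of Leydig cells, had log2 ratios of -1.49 and -0.92. The 5 measured Leydig markers had a median of -0.79 in pair 3 and reached up to 0.041. In pair 2 Insl3 and Hsd3b1 had 2.23 and 0.58, where Igf1 and Igf2 had 0.067 and 0.015. The part of Leydig cell RNA in the Igf1 and Igf2 values was not tested. The second Igf2 probe was well above background in 0 of 8 DEHP and 0 of 8 vehicle channels.

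**Figure D2:**
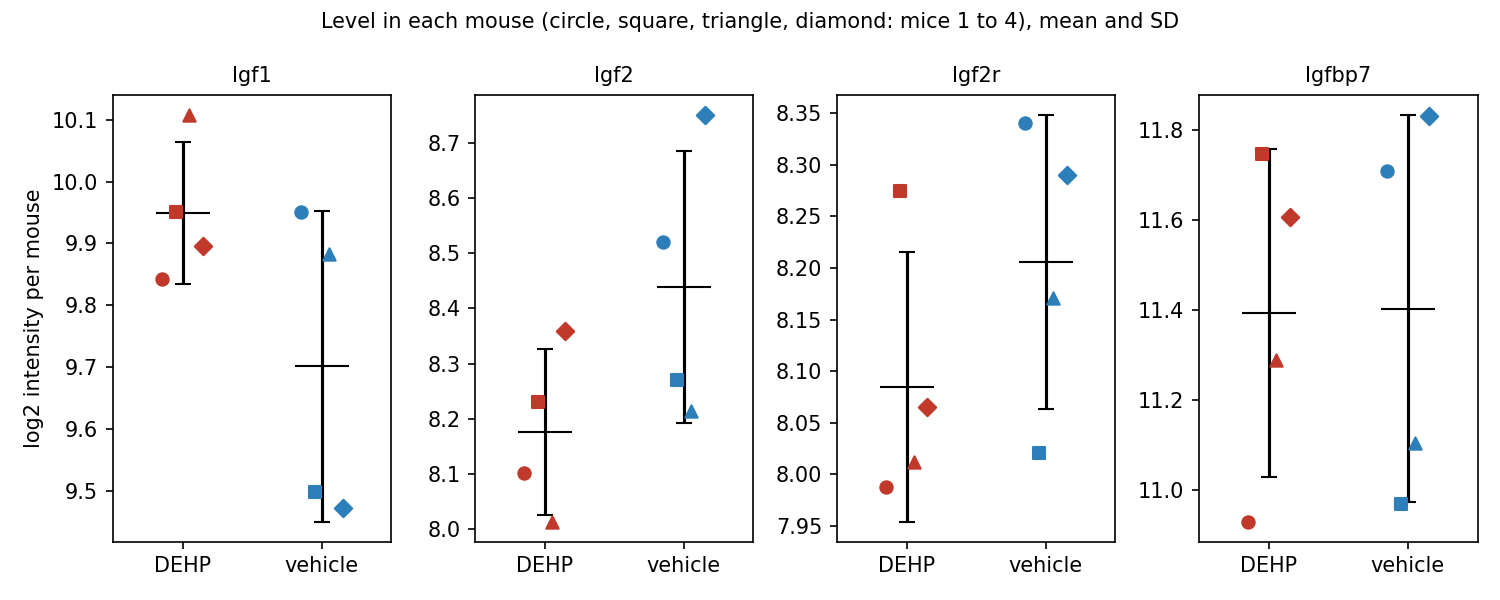
Log2 intensity (vertical axis, a different range in each panel) of Igf1, Igf2, Igf2r and Igfbp7 in the 4 DEHP and the 4 vehicle mice, with the mean and SD of each group. In all 4 panels the DEHP and vehicle mice overlap, and for Igfbp7 the 2 means differ least beside the spread of the mice.

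The array carries the bright Igf1 probe and the Igf2 probe in 10 spots each, which gives the technical error of a spot. Spots and dye swaps repeat the same RNA, whereas pairs are different mice. Within an array, the SD over the Igf1 spots that were used was 0.031 to 0.088. The 2 dye orientations of a pair differed by 0.095 to 0.15 for Igf1, and the SD between pairs was 0.31. For Igf2 the SD over spots was 0.0079 to 0.087, the dye orientations differed by 0.024 to 0.10, and the SD between pairs was 0.33. The SD between pairs of Igf1 was above that of 84.3% of all kept probes, and that of Igf2 above 86.6%.

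**Figure D3:**
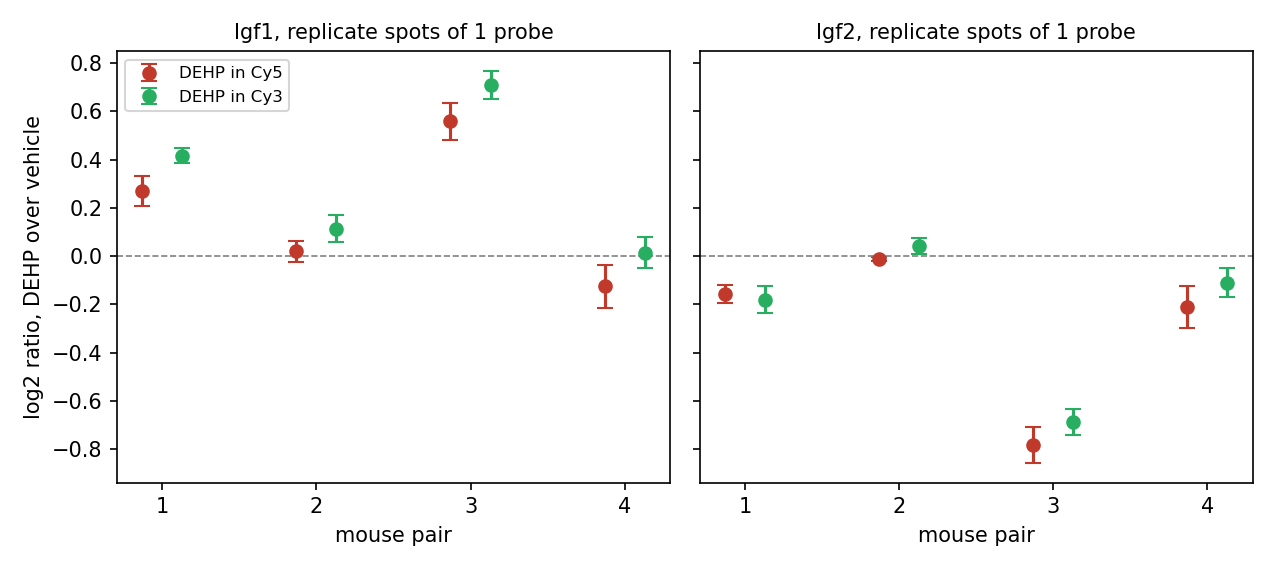
Mean and SD of the log2 ratio of DEHP over vehicle (vertical axis) over the replicate spots of the Igf1 probe (left) and the Igf2 probe (right), for each mouse pair (horizontal axis) and dye orientation (colour). The 2 orientations of a pair lie close together, and pair 3 lies highest for Igf1 and lowest for Igf2 in both.

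Neither receptor changed by the test. Igf1r, the signalling receptor, was dim: its kept probe was well above background in 6 of 8 DEHP and 5 of 8 vehicle channels. Its log2 intensity was 7.16, 7.11, 7.03 and 7.19 in DEHP mice, against 7.25, 7.06, 7.08 and 7.20 in vehicle mice. The 2 groups overlapped. Its log2 ratios were 0.098, 0.023, -0.17 and -0.062 in pairs 1 to 4, with a mean of -0.028 (95% interval -0.18 to 0.12, limma adjusted p = 0.961). Its other probe was well above background in 0 of 8 channels of either group.

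Igf2r, which clears IGF2 and is expressed from the maternal allele in mice, was measured in all channels. Its probe is listed at chr17:11399590-11399648 on the minus strand. Its log2 intensity was 7.99, 8.27, 8.01 and 8.07 in DEHP mice, against 8.34, 8.02, 8.17 and 8.29 in vehicle mice. DEHP mouse 2 and vehicle mouse 2 lay apart from the rest of their groups, and each fell within the range of the other group. Its log2 ratios were -0.033, 0.10, -0.28 and -0.28, with a mean of -0.12 (95% interval -0.33 to 0.093, limma adjusted p = 0.907). With DEHP in Cy5 the mean over the 4 pairs was 0.023, and with DEHP in Cy3 it was -0.26. The direction thus differed between the 2 sets of arrays, whose dye orientation and slide cannot be told apart.

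Among the binding proteins, Igfbp2, Igfbp5 and Igfbp7 were measured, and Igfbp3 and Igfbp4 were not well above background. Igfbp3 is the main carrier of IGFs in blood. Its probes were well above background in 0 of 8 DEHP channels each, and in 0 and 1 of 8 vehicle channels. The net intensity of its brighter probe (foreground minus local background) had a lowest, median and highest value of 7.39, 14.1 and 18.5 in the DEHP channels, against 9.26, 15.3 and 18.5 in the vehicle channels. Both probes of Igfbp4, an inhibitory binding protein, were well above background in 0 of 8 channels of either group. No fold is given for these genes.

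Igfbp2, an abundant binding protein of fetal tissues and body fluids, was well above background in 7 of 8 channels of each group. Its probe at chr1:73093964-73094023 (plus strand) is shown whole because Igfbp2 varied least among the IGF genes; capitals mark the 12 bases that it shares with a probe of another gene.
Igfbp2 probe A_51_P423308: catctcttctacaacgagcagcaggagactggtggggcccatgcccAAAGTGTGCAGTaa

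The log2 intensity of Igfbp2 was 7.16, 7.18, 7.19 and 7.12 in DEHP mice, against 7.08, 7.20, 7.18 and 7.16 in vehicle mice. All 8 mice lay close together. Its log2 ratios were -0.037, 0.0043, 0.024 and 0.039, with a mean of 0.0074 and a 95% interval of -0.098 to 0.11 (limma adjusted p = 0.987). The net intensity had a median of 26.5 in DEHP channels, against 32.5 in vehicle channels, below the offset of 50 added before taking logs, which draws ratios of dim probes towards 0.

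Igfbp5, a binding protein that attaches to extracellular matrix, was dim and its probes disagreed. The brighter probe was well above background in 5 of 8 DEHP and 4 of 8 vehicle channels, and gave log2 intensities of 7.10, 7.10, 7.10 and 7.23 in DEHP mice, against 7.20, 7.21, 7.15 and 7.16 in vehicle mice. DEHP mouse 4 was above all vehicle mice and the other DEHP mice were below them. Its mean log2 ratio was -0.047 (95% interval -0.16 to 0.070, limma adjusted p = 0.920), with 0.099 when DEHP was in Cy5 and -0.19 when DEHP was in Cy3. From the ratios of the extraction software it was 0.29. The other kept probe had a mean of 0.027, and -0.72 from the software's ratios.

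Igfbp7, a secreted protein of vessel walls and stroma that binds insulin as well as IGFs, had the widest range of all the IGF genes over the 8 mice. It was measured in all channels by 1 probe, at chr5:77280659-77280718 on the minus strand, whose opening 30 bases are shown because the pattern over mice rests on it.
Igfbp7 probe A_51_P472292: taacccactaacactttattacagccagct

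Its log2 intensity was 10.93, 11.75, 11.29 and 11.61 in DEHP mice, against 11.71, 10.97, 11.10 and 11.83 in vehicle mice. DEHP mouse 1 and vehicle mouse 2 were the lowest, vehicle mouse 4 the highest, and the groups overlapped over nearly their whole range. The log2 ratios were -0.038, 0.64, -0.54 and -0.10 in pairs 1 to 4, with a mean of -0.0093 and a 95% interval of -0.51 to 0.49 (limma adjusted p = 0.996). Without pair 2 the mean was -0.23, and without pair 3 it was 0.17. The SD between pairs, 0.49, was above that of 97.0% of all kept probes.

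Over the 8 mice, the genes whose level followed Igfbp7 most closely among 11273 genes were Hsd3b1 (Pearson r = 0.977), Fabp3, a fatty acid carrier (r = 0.964), and Htra1, a secreted protease that cuts IGF binding proteins (r = 0.948). The probe named Hsd3b1 may also read near-identical genes of its family. These correlations describe 8 mice that share arrays in pairs, and the genes were picked as the highest, so no p is given. The log2 intensity of Hsd3b1 was 7.98, 9.03, 8.47 and 8.94 in DEHP mice, against 9.15, 8.22, 8.45 and 9.38 in vehicle mice. The same mice were high and low as for Igfbp7.

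The mean level of the 5 measured Leydig markers ranged from 8.63 to 9.34 in DEHP mice, against 8.74 to 9.45 in vehicle mice. Of the defining Leydig genes, Cyp17a1, the enzyme that forms androgen precursors, had log2 ratios of -0.0033 to -0.29 over the pairs, and 4 of the 9 markers had no kept probe. The 14 Sertoli markers had a mean level of 10.03 to 10.27 in DEHP mice, against 9.95 to 10.20 in vehicle mice. Single Sertoli markers followed Igfbp7 too. Ctsl had log2 intensities of 13.38, 14.13, 13.61 and 14.04 in DEHP mice, against 14.13, 13.22, 13.57 and 13.76 in vehicle mice (r = 0.876 with Igfbp7 over the 8 mice). DEHP mouse 1 and vehicle mouse 2 were low and DEHP mouse 2 and vehicle mouse 1 high, as for Igfbp7, while vehicle mouse 4 was not the highest. Rhox5, an androgen-responsive homeobox gene of Sertoli cells named here after its values were seen, had r = 0.848. Over each list, the Pearson r with Igfbp7 ran between -0.78 and 0.977 for the 5 Leydig markers (median 0.728) and between -0.81 and 0.876 for the 14 Sertoli markers (median 0.248). It ran between -0.50 and 0.823 for endothelial (median -0.059) and between -0.48 and 0.800 for spermatid markers (median -0.13). For macrophage markers it ran between -0.38 and 0.777 (median 0.39), and for peritubular myoid markers between -0.62 and 0.762 (median 0.21). For spermatogonia markers it ran between -0.065 and 0.692 (median 0.20), and for spermatocyte markers between -0.48 and 0.429 (median 0.024). The part of RNA of any of these cell types in the Igfbp7 values was not tested.

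**Figure D4:**
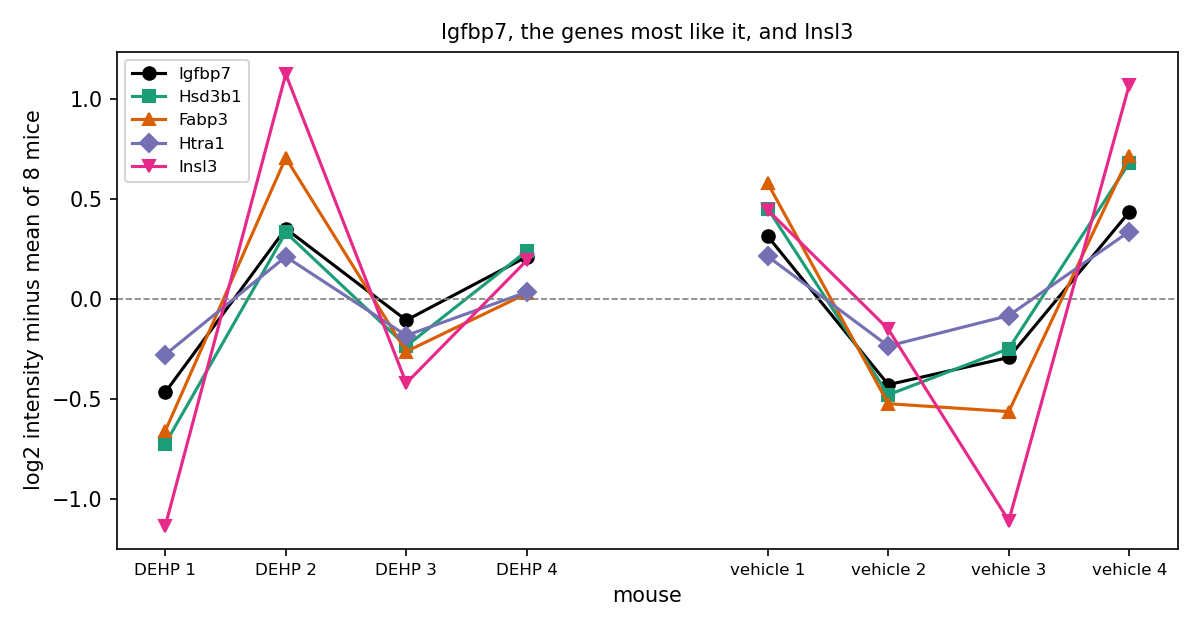
Log2 intensity minus the mean of the 8 mice (vertical axis) for Igfbp7, the 3 genes most like it and Insl3, in each DEHP mouse and each vehicle mouse (horizontal axis); lines only join the points of a gene. DEHP mouse 2 and vehicle mice 1 and 4 are high and DEHP mouse 1 is low for all 5 genes.

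The same description gave other genes for the ligands. Igf1 was followed most closely by Rad51l1, a DNA repair gene (r = 0.917), Kcnn2, a potassium channel (r = 0.911), and Mcf2l, a guanine nucleotide exchange factor (r = 0.910). Igf2 was followed by Helz, an RNA helicase (r = 0.982), Bbox1, an enzyme of carnitine synthesis (r = 0.970), and Myo5b, a transport myosin (r = 0.961). Over the 8 mice the log2 intensity was only 6.99 to 7.21 for Kcnn2 and 7.32 to 7.47 for Bbox1. That of the dim Igf1r was 7.03 to 7.25. Helz had log2 ratios of -0.21, 0.067, -0.89 and -0.22 in pairs 1 to 4, lowest in pair 3 as for Igf2.

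As a group, 2 of the 7 measured IGF genes had a mean log2 ratio above 0 and 5 below, and 0 of 7 had an unadjusted p under 0.05. Over all 22975 probes, 48.9% had a mean ratio above 0, 4.59% had an unadjusted p under 0.05, and 0 (0%) had an adjusted p under 0.05 in limma, the smallest being 0.903. The median log2 ratio of the 7 genes was -0.028, against -0.0021 over all kept probes, and the medians of pairs 1 to 4 were -0.037, 0.023, -0.17 and -0.062. The 95% intervals show what these data could miss. For Igf1 a 1.49-fold higher level, and for Igf2 a ratio of 0.658, lay within them.

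Genes that handle IGFs outside the members were taken from a list of 25, of which 16 were measured. By their brightest kept probe, 12 of the 16 were well above background in all 16 channels. Ratios of dim probes are drawn towards 0 by the offset. In limma, 0 of the 16 had an adjusted or unadjusted p under 0.05, 7 had a mean log2 ratio above 0 and 9 below, and their median was -0.012. Over all kept probes, 4.59% had an unadjusted p under 0.05 and 48.9% a mean ratio above 0. Among proteases, Ide, which degrades insulin, had 0.26 with 0.11, -0.050, 0.31 and 0.68 in pairs 1 to 4 (limma, unadjusted p = 0.096, adjusted p = 0.903). The binding protein proteases Htra1 and Pappa had -0.11 and -0.013, and the metalloprotease Adam9 had -0.040. Furin and Pcsk6, which cut growth factor precursors, had -0.18 and -0.012.

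Among receptors, Insr, the insulin receptor, had a mean log2 ratio of 0.018, its relative Insrr had 0.013, and Ghr, the growth hormone receptor, had 0.094. The binding protein Igfbp1 had 0.18, which came from pair 1 with 0.76, against -0.090, 0.00074 and 0.025 in pairs 2 to 4. Ins2, an insulin gene, had 0.023, and Vtn, a matrix protein, had -0.012. H19, the imprinted RNA gene beside Igf2, had 0.0065, and the RNA-binding proteins Igf2bp1, Igf2bp2 and Igf2bp3 had -0.061, -0.022 and -0.019. For Igf2bp1, Igf2bp3, Ghr and H19, another kept probe had the opposite sign.

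Downstream of the receptor, 35 of 40 listed signalling genes were measured. In limma, 1 of 35 (2.86%) had an unadjusted p under 0.05, against 4.59% of all kept probes, and 0 an adjusted p under 0.05. Mean log2 ratios were above 0 for 15 and below 0 for 20, with a median of -0.016, where 48.9% of all kept probes were above 0. The gene with the unadjusted p was Foxo3, a transcription factor that AKT keeps out of the nucleus, listed under its older name Foxo3a. Its log2 ratios were 0.33, 0.056, 0.61 and 0.17 in pairs 1 to 4, all above 0, and the mean was 0.29 (limma, unadjusted p = 0.035, adjusted p = 0.903). Of all kept probes, 13.6% had the same sign in all 4 pairs.

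Among the other signalling genes ranked first by p in their direction, Ptpn11, a phosphatase that passes on receptor signals, had a mean log2 ratio of 0.12. Below 0 were Pik3ca, the catalytic subunit of PI3 kinase, with -0.24, and the transcription factor Foxo1, with -0.14. Another kept probe of Ptpn11 had the opposite sign. None of these passed the test (limma, unadjusted p of 0.131 to 0.265, adjusted p of 0.903 to 0.908).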

How the data were processed

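The authors deposited, per the file headers, the scanned intensity of each spot as a foreground mean and a background median (Agilent Feature Extraction 9.5.1.1), 0 or 1 flags, and a log10 ratio of Cy5 over Cy3 from background-subtracted, dye-normalised signals. They also deposited a table of log2 ratios, for which limma is named in the submitters' processing notes; its background correction, centring and filter are not given in the sources used here. Its rows matched the spots by order. Its columns correlated by 0.943 to 0.972 with the extraction software's log ratios as DEHP over vehicle, after turning the dye swaps. The column medians were -0.0022 to 0.012. A correlation with the ratios normalised here was not computed. Its rows held 4 of the IGF genes.

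Background was corrected by normexp (offset 50) and each array was normalised by loess, with 246 to 331 outlier spots per array and control spots given no weight. Spots of a probe were averaged, ratios turned to DEHP over vehicle, and the 2 arrays of a pair averaged, leaving 4 values per probe. Pairs come from the arrays' labels, and their dye-swapped arrays correlated by 0.539 to 0.717. Probes well above background in at least 4 of 8 channels of a group were kept. The intercept was tested 2-sided with limma 3.58.1 in R 4.3.3, with Benjamini-Hochberg adjustment over all kept probes (threshold 0.05), and the fit was tested on simulated data. Levels per mouse are separate-channel log2 intensities after loess and Aquantile, averaged over both dyes. A gene is represented by its brightest kept probe. Gene names are those of the array design.

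Named were all IGF genes, all measured genes of the IGF handling list, 3 signalling genes per direction by smallest p (some of which are not reported here), Insl3 with the 2 brightest Sertoli and 2 other brightest Leydig markers, and the 3 genes most like Igf1, Igf2 and the widest-ranging binding protein. The IGF genes and lists were chosen with earlier results of these data known. Medians and counts of the peritubular, endothelial, macrophage and germ cell marker lists were computed too, with 0 genes past the threshold in any. Alternatives covered background correction, normalization, filter, treatment of pairs, dye orientation, separate channels, the probe per gene, the authors' table and each pair left out.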

Additional observations from a re-analysis of the deposited data

Results flagged for a closer look

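In 4 places a single mouse or pair lay far from the other 3 values of its group by Dixon's test. They were found among 87 groups of 4 values examined for the named genes and the IGF medians, and chance gives about 1 in 20 such groups. For Igfbp5, DEHP mouse 4 had a log2 intensity of 7.23, while the other DEHP mice had 7.10 each, on a probe well above background in 5 of 8 DEHP channels. For Igfbp1, the log2 ratio of pair 1 was 0.76, while the other pairs had -0.090, 0.00074 and 0.025. For Furin, the log2 ratio of pair 3 was -0.56, while the other pairs had -0.068, -0.0048 and -0.067. For the Leydig marker Cyp17a1, DEHP mouse 1 had a log2 intensity of 9.04, while the other DEHP mice had 8.94, 8.95 and 8.94.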

How the results depend on the processing

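The count of IGF genes past the threshold was 0 under all 16 alternatives, as was the count over all probes. Among all probes, 497 to 3243 had an unadjusted p under 0.05, against 1055 in the reported fit. Only 4 IGF genes were tested with the authors' table, and 4 with probes well above background in all 16 channels. Igf1 kept a mean log2 ratio above 0 (0.12 to 0.35) and Igf2 one below 0 (-0.38 to -0.10) under every alternative. The alternative that averages all kept probes of a gene used both Igf1 probes (0.18), the others the bright probe. Alternatives that change only the filter or the replicate block, or use separate channels, give the reported mean by design. Their sign could not differ. With the 8 arrays fitted with a dye term and the pair as a random replicate block, 0 IGF genes passed (smallest adjusted p 0.704, with Igf1 and Igf2 at unadjusted p of 0.029 and 0.030), and with no replicate block 0 passed (smallest adjusted p 0.274). The paired arrays are of the same mice, so a fit without the block counts each mouse more than once. That fit gave unadjusted p (limma) of 0.025 and 0.043 for the kept Igf1 probes and 0.023 for Igf2. Unadjusted p (limma) was also 0.032 for Igf1 with median centring and 0.046 without pair 4. For the brighter Igfbp5 probe it was 0.019 with DEHP in Cy3 alone.

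The sign of the dim or variable genes depended on the setting. With the software's ratios, the mean was 0.062 for Igf1r, -0.011 for Igfbp2, 0.29 for Igfbp5 and 0.032 for Igfbp7. With DEHP in Cy5 alone it was 0.023 for Igf2r, 0.099 for Igfbp5 and 0.14 for Igfbp7, and the median of the IGF handling list was 0.044. With DEHP in Cy3 alone it was 0.045 for Igf1r and -0.018 for Igfbp2, and the median of the IGF genes was -0.16. Median centring gave -0.00076 for Igfbp2 and 0.098 for Igfbp7. The cause was not tested. Leaving out each pair in turn gave ranges of 0.12 to 0.35 for Igf1, -0.35 to -0.10 for Igf2, -0.070 to 0.020 for Igf1r and -0.20 to -0.068 for Igf2r. It gave -0.0030 to 0.022 for Igfbp2, -0.073 to -0.024 for Igfbp5 and -0.23 to 0.17 for Igfbp7. The medians ranged from -0.048 to 0.0018 for the IGF genes, -0.017 to 0.023 for the handling list and -0.038 to 0.00028 for the signalling list. The authors' deposited table gave 0.27 for Igf1, -0.35 for Igf2, -0.042 for Igf2r and -0.00091 for Igfbp7. Signal over background limits Igf1r, Igfbp2 and Igfbp5, and leaves Igfbp3 and Igfbp4 without a value.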
